A study of Mus musculus with 4 samples.

Results

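A set of 10 genes that encode structural proteins of the outer epidermis were followed: loricrin (Lor), involucrin (Ivl), cornifelin (Cnfn), filaggrin (Flg), hornerin (Hrnr), repetin (Rptn), trichohyalin (Tchh), Crct1, Kprp and 2310050C09Rik. They were chosen by name, with earlier results of these data known. Every probe set annotated to one of these symbols alone was taken, dim ones included, which gave 15 of 45037 probe sets and 10 of 18193 named genes. The samples were basal epidermal cells sorted by flow cytometry from the skin of mouse embryos at embryonic day 16, of mixed C57 and CD1 strain. There were 2 arrays from wild-type embryos (WT) and 2 from embryos in which Ezh2 was conditionally knocked out (Ezh2cKO), numbered 1 and 2 in each genotype, with no treatment named for either. The Ezh2 enzyme does the methylating work of Polycomb repressive complex 2, whose histone mark keeps genes silent, and the study compared the genotypes to ask what its loss does to gene expression in these progenitors. The driver of the deletion, the state of the Ezh2 allele in the WT embryos and the number of embryos per sample were not given in the sources used here. Nothing states that the arrays of a genotype came from separate embryos, so the spread behind each p-value is that among these arrays. Between the WT arrays it may be technical alone. The Ezh2cKO arrays differed widely in the RNA Xist (86.9 and 11333), so they were not repeats of the same RNA, but the number of embryos behind them stays unknown.

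The cornified envelope is a shell of cross-linked protein that replaces the plasma membrane of keratinocytes as they leave the granular layer. Involucrin is laid down early as a scaffold, loricrin is its most abundant component, and transglutaminases join them. Filaggrin, hornerin, repetin and trichohyalin are S100 fused-type proteins, with an S100-like calcium-binding start and long repeats, and filaggrin bundles keratin filaments before it is broken down into moisturising products. Basal cells normally keep these genes low, and 9 of the 10 genes lie together in the epidermal differentiation complex on chromosome 3, while Cnfn lies on chromosome 7.

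The sequence before the annotated start was in the RefSeq promoter table (GRCm38.p6) for 8 of the 10 genes, and 250 bases were searched on both strands. The AP-1 motif TGANTCA was found in 4 of the 8 (Lor, Ivl, Flg and Rptn), and in 6.75% of all 32851 promoter entries of the same length. The motif TATAAA was found in 6 of the 8, against 12.4% of all entries, and Tchh and Cnfn had neither motif. CpG pairs, which are dense in many Polycomb-bound promoters, numbered 0 to 3 in the 8 genes, against a median of 6 over all entries, 37.8% of which held at most 3. The 5 upstream sequences below were chosen with the array values known. Those of Hrnr, which held TATAAA alone, and of Tchh and Cnfn are not printed. A link between motif content and array values was not tested. TGANTCA and TATAAA are in capitals, and the start site lies just after the last base.
Lor, chr3:92083143-92083392, minus strand: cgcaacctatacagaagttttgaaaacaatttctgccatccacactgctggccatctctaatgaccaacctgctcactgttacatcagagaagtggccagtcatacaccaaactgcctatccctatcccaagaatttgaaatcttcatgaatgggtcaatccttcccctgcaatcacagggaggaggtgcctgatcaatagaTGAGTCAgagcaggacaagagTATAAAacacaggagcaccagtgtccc
Ivl, chr3:92573736-92573985, minus strand: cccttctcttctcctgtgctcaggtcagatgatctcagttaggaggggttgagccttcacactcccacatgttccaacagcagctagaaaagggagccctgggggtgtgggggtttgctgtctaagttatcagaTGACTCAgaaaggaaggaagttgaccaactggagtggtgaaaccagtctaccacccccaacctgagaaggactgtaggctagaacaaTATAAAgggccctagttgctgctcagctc
Flg, chr3:93273296-93273545, plus strand: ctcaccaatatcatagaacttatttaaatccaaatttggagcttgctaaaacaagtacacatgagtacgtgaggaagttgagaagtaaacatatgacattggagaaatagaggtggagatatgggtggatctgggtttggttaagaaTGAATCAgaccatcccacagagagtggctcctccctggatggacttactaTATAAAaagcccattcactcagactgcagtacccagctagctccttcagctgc
2310050C09Rik, chr3:92870206-92870455, minus strand: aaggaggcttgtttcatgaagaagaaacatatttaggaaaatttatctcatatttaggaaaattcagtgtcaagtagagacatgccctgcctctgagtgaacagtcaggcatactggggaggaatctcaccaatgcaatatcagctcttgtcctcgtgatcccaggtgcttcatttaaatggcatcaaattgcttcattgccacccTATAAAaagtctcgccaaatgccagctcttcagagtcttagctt
Rptn, chr3:93393449-93393698, plus strand: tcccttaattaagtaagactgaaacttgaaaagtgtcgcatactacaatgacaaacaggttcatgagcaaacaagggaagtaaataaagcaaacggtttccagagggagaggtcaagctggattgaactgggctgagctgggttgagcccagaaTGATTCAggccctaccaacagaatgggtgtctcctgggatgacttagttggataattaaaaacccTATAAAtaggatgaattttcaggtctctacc
Lor had TGANTCA beginning at position -48 and TATAAA at -27 from the start site, Ivl at -116 and -29, and Flg at -103 and -53. Rptn also held both, at -96 and -31, and 2310050C09Rik held TATAAA alone, at -44. These matches describe the letters only and show no binding.

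The arrays carried MAS5 signals, a brightness on a linear scale for each probe set. Over all non-control probe sets the medians were 91.6 and 137 in WT replicates 1 and 2, and 87.4 and 148 in Ezh2cKO replicates 1 and 2. Ezh2 itself had signals of 3336 and 3603 in WT and 661 and 1308 in Ezh2cKO, so both knockout arrays lay below both WT arrays (limma log2 difference -1.88, adjusted p = 0.999993). Its adjusted limma p was 0.000444 without WT replicate 1 and 0.000205 without WT replicate 2, each time with a lone WT array, but 0.999977 without Ezh2cKO replicate 1, 0.108 without Ezh2cKO replicate 2 and 0.334 with the replicate number as a block. Keratins of the basal layer were bright throughout, with Krt5 between 15518 and 18518 and Krt14 between 14501 and 16592, and so was Krt10, a keratin of the layer above, between 16550 and 20275. Dcn, a fibroblast gene, was also bright on all 4 arrays (13276 to 17210), so basal markers were high but not alone. Xist, the X-inactivation RNA, had 86.9 in Ezh2cKO replicate 1 and 8669 to 11333 on the other arrays. The summed signal of 10 endothelial markers was 5806 in Ezh2cKO replicate 1, against 10796 and 12061 in WT and 12883 in Ezh2cKO replicate 2. The part of these differences in the results for the envelope genes was not tested.

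Loricrin had a bright signal, with 95.4% of probe sets dimmer by mean, and was higher in both Ezh2cKO arrays. Its brightest probe set, 1448745_s_at, read 1753 and 2498 in WT replicates 1 and 2, and 5629 and 3423 in Ezh2cKO replicates 1 and 2. The groups did not overlap, and the gap was much wider within number 1 than within number 2. The means were 2126 ± 527 in WT and 4526 ± 1559 in Ezh2cKO (SD, n = 2 each), a log2 difference of 1.06 (SE 0.29, 95% confidence interval 0.35 to 1.78). Log2 values were taken of the signal plus 16, which understates the difference of dim probe sets. Another probe set, 1420183_at, gave 1362 and 2709 in WT against 5337 and 3353 in Ezh2cKO (log2 1.13, SE 0.37). The third, 1420184_at, was dim, at 71.0 and 68.4 against 97.8 and 80.7 (log2 0.29, SE 0.48), so the probe sets had the same sign but not the same size. Without WT replicate 2, the array that lay nearest to the Ezh2cKO arrays, limma's adjusted p for 1448745_s_at and 1420183_at was 0.0380 and 0.000809, against 0.941 to 1 in the other alternatives run, with a lone WT array assumed to vary like the others. The log2 difference of 1420183_at was 0.64 without WT replicate 1, and that of 1448745_s_at was 0.71 without Ezh2cKO replicate 1. In these sorted populations a larger number of loricrin-expressing cells and more RNA per cell cannot be told apart, which holds for each gene below.

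Involucrin, the early scaffold, had a smaller difference. Probe set 1439878_at read 50.7 and 128 in WT and 164.0 and 163.7 in Ezh2cKO. Both Ezh2cKO arrays lay above both WT arrays, but the WT arrays stood further from each other than WT replicate 2 stood from Ezh2cKO. The log2 difference was 0.88 (SE 0.54, 95% confidence interval -0.45 to 2.20), with 1.43 within number 1 and 0.32 within number 2, and 0.32 without WT replicate 1. Its other probe set, 1422222_at, was among the dimmest of the array, with signals of 3.60 to 6.53 and 3.92% of all probe sets dimmer by mean, and says little about the gene.

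Cornifelin, a further envelope component, is the gene outside the complex. It read 112 and 209 in WT and 150 and 234 in Ezh2cKO, so the groups overlapped. The arrays were ordered by replicate number rather than by genotype, as were the array medians over all probe sets. The log2 difference was 0.26 (SE 0.47), and within numbers 1 and 2 it was 0.37 and 0.15.

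Of the genes whose genotypes did not overlap, filaggrin had the most even difference across the replicate numbers. Its single probe set, 1427268_at, read 23.8 and 29.5 in WT and 169 and 184 in Ezh2cKO. All arrays of a genotype lay close together and the groups were far apart. The means were 26.6 ± 4.0 and 177 ± 10.4 (SD, n = 2 each), with a log2 difference of 2.18 (SE 0.49, 95% confidence interval 0.99 to 3.36). On the log2(signal + 16) scale the excess was 4.65-fold for the arrays numbered 1 and 4.40-fold for those numbered 2. The WT signals lay under 73.2, the level above which the brighter 60% of probe sets lie, and detection calls were not used here, so the size depends on the pseudocount, being log2 2.69 for a pseudocount of 1 and 1.41 for 64.

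Hornerin, its neighbour in the complex and a protein of similar build, had another pattern. It read 137 and 684 in WT and 642 and 863 in Ezh2cKO. WT replicate 1 alone was low, and WT replicate 2 lay above Ezh2cKO replicate 1, so the groups overlapped. The log2 difference was 1.22 (SE 0.68, 95% confidence interval -0.45 to 2.88), with 2.11 within number 1 and 0.33 within number 2. WT replicate 2 exceeded WT replicate 1 by a log2 of 2.20, more than the genotypes differed. Without WT replicate 2 the log2 difference was 2.32 with limma's adjusted p = 0.00256 (0.972 to 1 in the other alternatives run), and without WT replicate 1 it was 0.12.

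Trichohyalin, best known from the inner root sheath and medulla of the hair, read 108 and 150 in WT and 104 and 151 in Ezh2cKO. The arrays matched by number, as the array medians over all probe sets did. The log2 difference was -0.02 (SE 0.46, 95% confidence interval -1.15 to 1.11). Of 9 measured markers of the hair inner root sheath and cuticle, 6 lay under 73.2, and Krt25 read 1.71 to 10.2. Repetin, which is also an envelope precursor, was dim by all of its probe sets. Its brightest, 1433210_at, read 56.9 and 82.6 in WT and 39.9 and 95.1 in Ezh2cKO, with the knockout arrays at both extremes (log2 -0.11, SE 0.57). Probe set 1433211_at, designed on the same sequence record, showed the same order at 45.6 and 55.8 against 33.3 and 64.5, and 1420431_at read 6.49 to 19.1. The 95% confidence interval for 1433210_at ran from -1.51 to 1.30.

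The remaining genes lie between the loricrin and filaggrin ends of the complex and all were higher in both Ezh2cKO arrays. Crct1, which encodes a small cysteine-rich protein, read 122 and 105 in WT and 903 and 247 in Ezh2cKO. Ezh2cKO replicate 1 stood far above the rest, while the WT arrays were alike. The log2 difference was 1.93 (SE 0.61, 95% confidence interval 0.44 to 3.42), with 2.73 within number 1 and 1.12 within number 2, and 1.02 without Ezh2cKO replicate 1.

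The gene 2310050C09Rik, known by its clone name, read 17.3 and 18.3 in WT and 213 and 63.1 in Ezh2cKO. Its WT arrays were as alike as those of Crct1 and its knockout arrays were split in the same way. The log2 difference was 1.99 (SE 0.65, 95% confidence interval 0.42 to 3.57), 2.78 within number 1 and 1.20 within number 2. Its WT signals were dim, and the difference was log2 2.64 for a pseudocount of 1 and 1.20 for 64. Without Ezh2cKO replicate 1 it was 1.23.

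Kprp, the keratinocyte proline-rich protein, read 117 and 164 in WT and 458 and 273 in Ezh2cKO, without overlap. The log2 difference was 1.26 (SE 0.40, 95% confidence interval 0.28 to 2.24), 1.83 within number 1 and 0.68 within number 2.

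**Figure D1:**
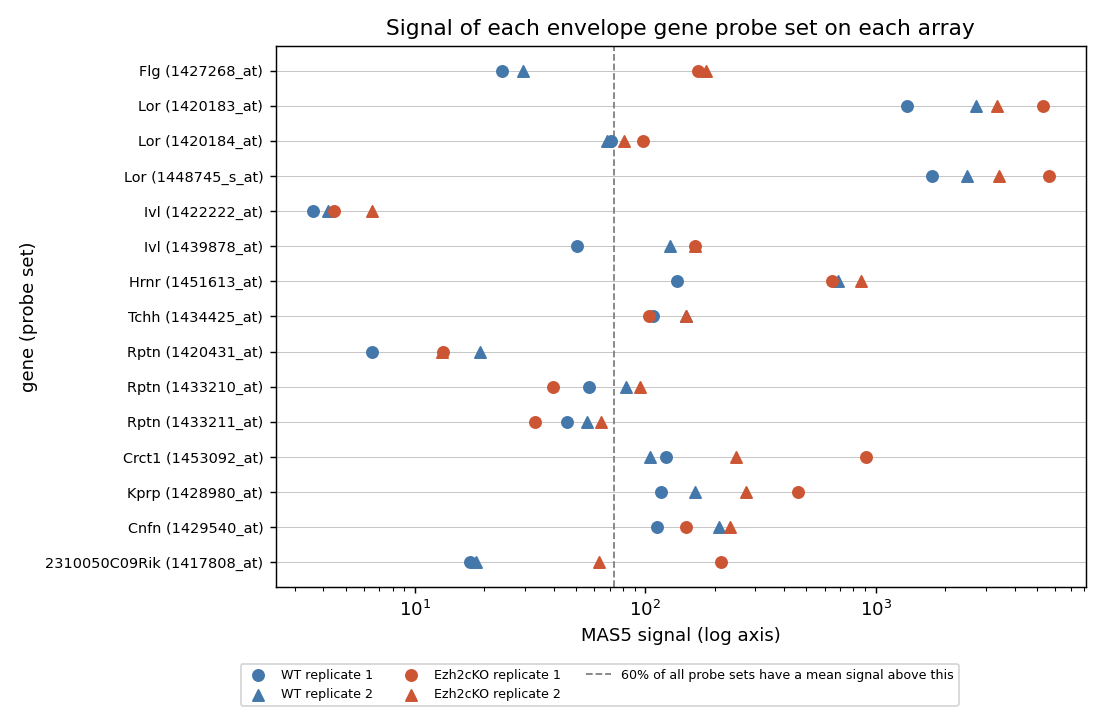
MAS5 signal (log axis) of each of the 15 probe sets on each array, with WT in blue, Ezh2cKO in orange, circles for number 1 and triangles for number 2. The Flg signals form separate pairs by genotype, at 23.8 and 29.5 against 169 and 184, while the Tchh signals pair by number.

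Counted by the brightest probe set, 6 of the 10 genes had both Ezh2cKO arrays above both WT arrays (Flg, Lor, Ivl, Crct1, Kprp and 2310050C09Rik) and 0 had both below, where 9.9% and 9.14% of all 18193 genes did. After quantile normalization the count was 7, with Cnfn added (10.05% of all genes), and after scaling to a common median it was 8, with Hrnr and Cnfn added (6.88% of all genes). Without Ezh2cKO replicate 1 it was 10, where 36% of all genes were so ordered with 3 arrays. By probe set, 9 of 15 were higher in this way and 0 lower, where 9.11% and 8.23% of all were. With the pseudocount added, Flg and 2310050C09Rik were at least 2-fold higher in all 4 pairings of a knockout and a WT array. So were 0.0989% of all genes and 0.0866% of all probe sets on the same scale. Crct1 fell short on this scale only, with a lowest log2 difference of 0.93. Its signals alone, at least 247 in Ezh2cKO and at most 122 in WT, were more than 2-fold apart. The median log2 difference of the 10 genes was 1.14, and that of all genes was 0.001.

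No single gene passed limma's test. The adjusted p was 0.999993 for each of the 15 probe sets, and 0 of all 45037 were called (0%). When WT replicate 2 was left out the fit called 47 probe sets, and when WT replicate 1 was left out it called 10. Dropping Ezh2cKO replicate 2 gave 2 calls, and dropping Ezh2cKO replicate 1 gave 0. Before adjustment, limma's p lay under 0.05 for 6 of the 15, all higher in Ezh2cKO, from Flg, Lor, Crct1, Kprp and 2310050C09Rik, and for 329 of all probe sets in that direction (0.731%) and 175 in the other (0.389%). Flg had the lowest unadjusted limma p of the 15, at 0.00412. A missed threshold does not show that values were equal.

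The difference was larger within number 1 than within number 2 for 8 of the 10 genes, and for 49.7% of all genes. The 8 included all 6 whose arrays did not overlap. The median over the 10 genes was log2 1.75 within number 1 and 0.39 within number 2, while over all genes both medians lay between 0.001 and 0.004. With the pseudocount added, at least a 2-fold excess was seen for 7 of the 10 within number 1, where 1.63% of all genes reached it. Within number 2 it was seen for 3 of the 10 (Flg, Crct1 and 2310050C09Rik), where 2.06% of all genes reached it. Of the 297 genes that were at least 2-fold higher within number 1, 94.6% had the larger difference there. Picking genes for a high value in that pair nearly fixes this share in advance, so it says little about the 10 genes. WT replicate 2 exceeded WT replicate 1 by a median log2 of 0.43 over the 10 genes, and by 0.03 over all genes. Between Ezh2cKO replicates 2 and 1 this median was 0.05 over the 10 genes and 0.06 over all genes. That knockout difference was -0.003 for Ivl and ran from 0.11 to 0.99 for Flg, Hrnr, Tchh, Rptn and Cnfn. For Lor, Kprp, Crct1 and 2310050C09Rik, Ezh2cKO replicate 2 was below Ezh2cKO replicate 1, with log2 differences of -0.71, -0.72, -1.81 and -1.53. Ezh2cKO replicate 1, the highest array for these 4 genes, was also the array with low Xist and low endothelial signal given above.

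**Figure D2:**
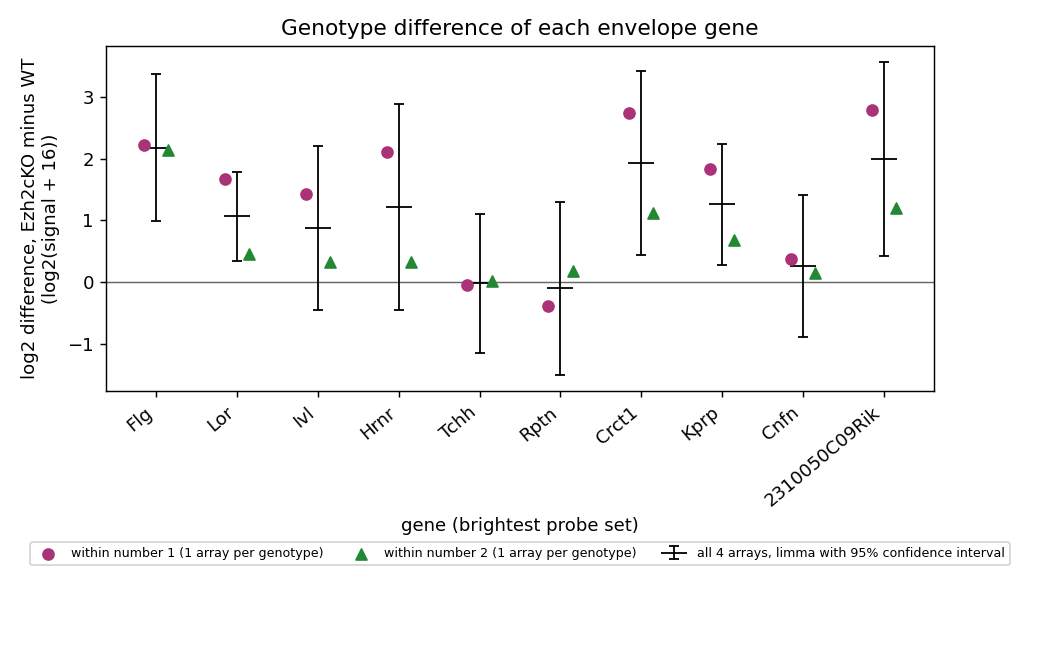
Log2 difference, Ezh2cKO minus WT, of each gene by its brightest probe set, from all 4 arrays with limma's 95% confidence interval (black) and within number 1 (circles) and number 2 (triangles), 1 array per genotype each. Flg has its symbols together at 2.22 and 2.14, and Tchh and Rptn lie around 0 with signs that differ between the numbers.

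Along the complex, from Lor to Tchh, the RefSeq table lists 50 protein-coding genes, 35 of which were measured. The 6 genes without overlap come in the order Lor, Ivl, Kprp, 2310050C09Rik, Crct1 and Flg, and Hrnr, Rptn and Tchh follow beyond Flg. The 26 other measured genes between Lor and Flg were chiefly late cornified envelope (Lce) and small proline-rich (Sprr) genes. Of them, 13 were higher in both Ezh2cKO arrays and 1 was lower, where 9.9% and 9.14% of all genes were. Their median log2 difference was 0.45. The measured genes on either side of Kprp, Lce1i and Lce1l, had log2 differences of 1.28 and 0.94. Those beside 2310050C09Rik were Lce1l and Lce3a (-0.63), and those beside Crct1 were Lce3f (-0.24) and Lce1m (2.09). This order was noticed with the values in view and carries no test.

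**Figure D3:**
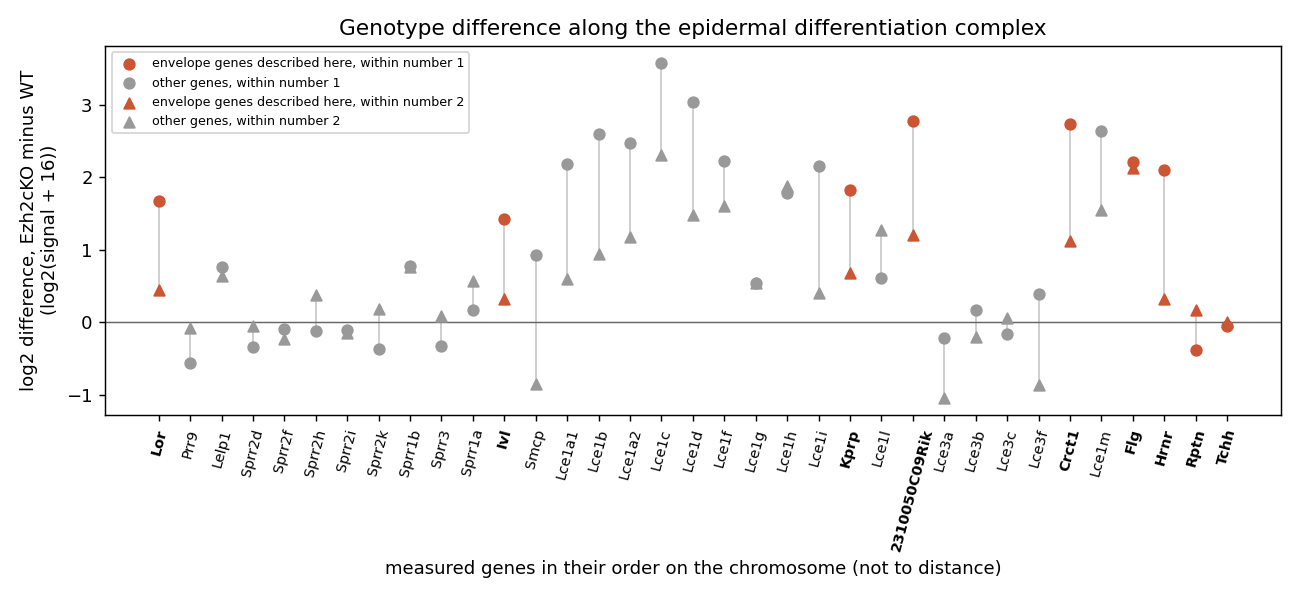
Log2 difference, Ezh2cKO minus WT, within number 1 (circles) and number 2 (triangles) for the 35 measured genes from Lor to Tchh in chromosome order, equally spaced, with the genes described here in orange and the others in grey. Within number 1, high values stand at Lor, Ivl, most Lce1 genes, Kprp, 2310050C09Rik, Crct1, Flg and Hrnr. Smaller positive ones stand at Lelp1, Sprr1b, Smcp, Lce1g and Lce1l. Sprr2, Lce3, Rptn and Tchh lie at most at 0.39 there (Lce3f). Within number 2, Ivl (0.32) and Hrnr (0.33) lie no higher than Sprr2h (0.38).

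Genes that act with these proteins were taken from 4 lists, and none of their members passed limma's adjusted threshold. Beside the counts below, 9.9% of all genes had both Ezh2cKO arrays above both WT arrays and 9.14% had both below. Among 24 measured other envelope precursors (Lce, Sprr and related genes), both Ezh2cKO arrays were above WT for 12 and below it for 1, with a median log2 of 0.45. Nearly all of the 24 were also among the 26 other genes between Lor and Flg given above, so these counts are not separate results. The 12 were Lce1 genes and Sprr1b. Near-identical Lce1 paralogs may share probes, so values of single Lce1 genes are uncertain and their count may repeat the same signal. Lce1c read 69.2 and 41.4 in WT and 1007 and 269 in Ezh2cKO, and Lce1b read 218 and 231 against 1397 and 457. Among 13 genes of cross-linking and scaffold, 3 were higher and 1 lower, with a median of 0.01. Tgm1 read 104 and 115 in WT and 142 and 131 in Ezh2cKO. Dsc1, a desmosomal cadherin, read 445 and 493 against 623 and 613, and the envelope scaffold protein periplakin (Ppl) was the lower one, at 3636 and 3303 against 3199 and 2756. The transglutaminases of the list, Tgm1, Tgm3 and Tgm5, named after their values were seen, had log2 differences of 0.28, 0.18 and -0.16, and Tgm5 read 682 and 212 in WT and 475 and 244 in Ezh2cKO.

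Of 16 measured genes for processing and breakdown of profilaggrin, 4 were above and 0 below WT in both Ezh2cKO arrays, with a median log2 of 0.12. Of all genes, 9.9% were above and 9.14% below in this way. The kallikrein proteases Klk7 and Klk5, which cut proteins of the outermost layer, read 85.9 and 109 against 250 and 207, and 86.0 and 75.2 against 164 and 161. Histidase (Hal), which acts on histidine freed from filaggrin, read 10.8 and 54.3 against 61.8 and 102. Casp14, a protease that degrades filaggrin, read 301 and 459 in WT and 302 and 483 in Ezh2cKO, pairing by number as Tchh did; it was named after its values were seen. Of 14 measured regulators of terminal differentiation, 2 were higher and 0 lower, beside the same 9.9% and 9.14% of all genes. The 2 were Hopx, at 721 and 692 against 968 and 855, and Prdm1, at 225 and 287 against 293 and 364. Maf went the other way by its means, at 688 and 461 against 417 and 466, where the genotypes overlapped. The median log2 difference of the 14 was 0.10.

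**Figure D4:**
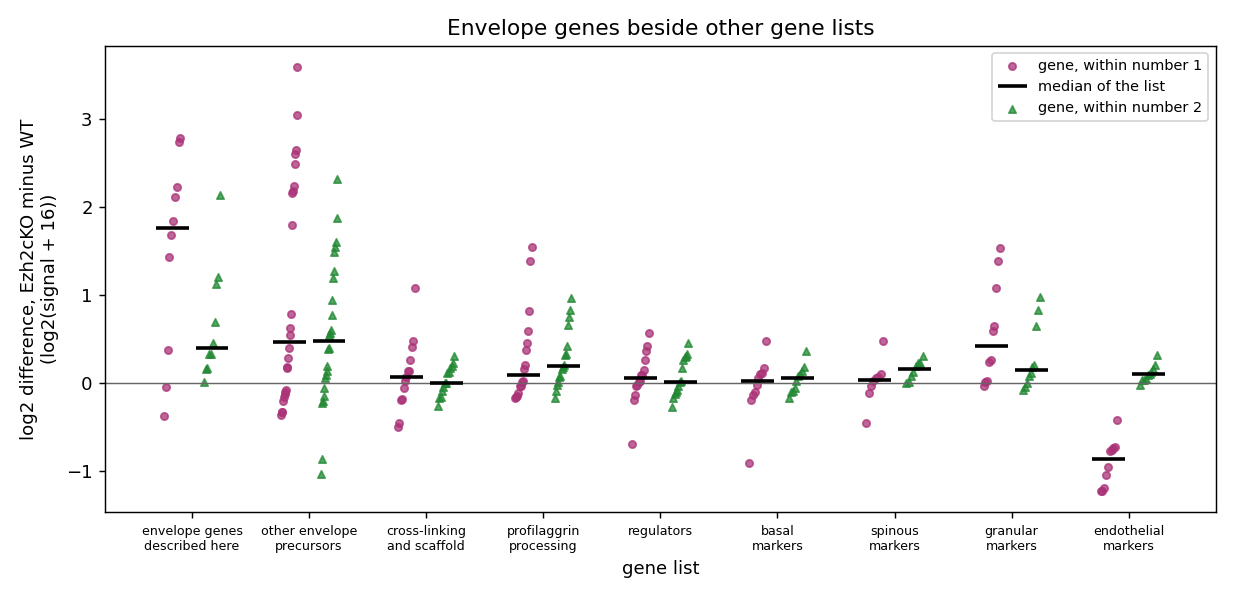
Log2 difference, Ezh2cKO minus WT, of single genes within number 1 (circles) and number 2 (triangles), with list medians as bars, for the 10 envelope genes, the 4 lists of related genes and 4 lists of cell markers. The 10 genes have medians of 1.75 and 0.39. The medians of the basal and spinous markers lie near 0, with single genes spread to both sides, such as Itga6 (-0.91) and Itga3 (0.47) within number 1. Endothelial markers are low within number 1 alone, with a median of -0.87.

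Markers of the epidermal layers had the following values beside the 10 genes. The counts stand beside 9.9% of all genes that were above WT in both Ezh2cKO arrays and 9.14% that were below. Of 10 basal markers, 2 lay above and 1 below WT in both Ezh2cKO arrays. Their summed signal ran from 83961 to 94509 in WT and from 86955 to 89662 in Ezh2cKO. The lower one was Itga6, at 11908 and 10639 in WT and 6327 and 9411 in Ezh2cKO, and the higher ones were Krt14 and Itga3. Itga6 and Itga3 were named after their values were seen. Of 8 spinous markers 1 was higher and 0 lower, with sums of 60343 to 68776 and 65675 to 69718. Of 10 granular markers 3 were higher and 0 lower, with sums of 4936 to 5322 in WT and 5782 to 7779 in Ezh2cKO. The largest part of that sum was Asprv1, a protease that acts on profilaggrin, at 3395 and 2933 in WT and 5103 and 3379 in Ezh2cKO, where the genotypes overlapped. Of 7 measured periderm markers, 2 were higher and 0 lower, with sums of 8778 to 13294 and 11447 to 14516. The 9 inner root sheath markers had 2 higher and 2 lower, with sums of 433 to 477 and 468 to 530.

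Markers of other cells gave the following counts, beside the same shares of all genes (9.9% higher and 9.14% lower). Of 10 endothelial, 8 fibroblast and 3 erythroid markers, 0 were higher or lower in both Ezh2cKO arrays. Of 9 immune and 8 melanocyte markers, 1 was lower in each list and 0 were higher, of 6 Merkel cell markers 1 was higher, and of 6 skeletal muscle markers 2 were higher. Fibroblast sums were 51462 and 59807 in WT and 48356 and 62981 in Ezh2cKO, and they and the endothelial sums had their lowest value in Ezh2cKO replicate 1, where Lor, Crct1, Kprp and 2310050C09Rik had their highest. The ranges in WT and Ezh2cKO were 875 to 1217 and 977 to 988 for the immune sum, 1714 to 2431 and 1717 to 1789 for melanocytes, 476 to 755 and 469 to 789 for Merkel cells, 313 to 352 and 231 to 343 for erythroid cells, and 654 to 690 and 735 to 745 for muscle. No marker was listed at 0, and the part of these cells in the envelope gene results was not tested.

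The genes nearest in pattern were sought for 4 of the envelope genes, by the Euclidean distance between log2 profiles centred over the 4 arrays, among 12702 genes with a mean signal of at least 73.2. For Crct1 the nearest were 2310050C09Rik (distance 0.27 on the log2 scale), Lce1b (0.30) and Lce1a2 (0.33), all of the same complex. For Lor they were Hoxa9 (0.14), Kprp (0.20) and Mlxipl (0.24), and for Ivl Gm94 (0.19), Ggt5 (0.28) and Nrn1 (0.29). For Flg the nearest lay further off, at 0.76 for Zap70, 0.77 for Sfmbt2 and 0.92 for Nts. The level was applied to the mean over the 4 arrays, so a high Ezh2cKO signal could bring a gene in. Of the genes named, 2310050C09Rik (mean 77.9) met it only through Ezh2cKO replicate 1, at 213 against 17.3 and 18.3 in WT. Mlxipl also had WT signals under it, at 60.2 and 73.0. With 4 arrays such likeness is a description only.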

How the data were processed

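Per the labels, biotin-labelled RNA of 4 sorted samples was put on Affymetrix mouse chips, 1 per sample. The deposited values are linear MAS5 signal intensities, as the submitters' processing notes name the method, without a version. With 2% trimmed from both ends, every array averaged 500.0, so the authors' scaling was kept. Sample titles gave the groups. Without the 64 control probe sets, 34945 of 45037 probe sets had 1 gene symbol, 932 had several and 9160 had none listed; 34741 were updated through RefSeq gene identifiers (GRCm38.p6), used for names, gene order and upstream sequence only. A gene was represented by its brightest probe set.

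Values were analysed as log2(signal + 16) with limma 3.58.1 in R 4.3.3 (intensity trend, no block), with no filter on dim probe sets so that every one was tested, and Benjamini-Hochberg adjustment over all 45037 at 0.05. The script was tested on simulated data. Counts of genes whose arrays did not overlap carry no test. Alternatives were other pseudocounts, filters on dim probe sets, scalings, a replicate block, no trend, the mean of probe sets and leaving out each array. Same-numbered arrays deviated together (correlation 0.61 over probe sets), but 2 pairs and the labels do not establish pairing. Named genes were all member probe sets, Ezh2, up to 3 per related list by the largest moderated t (part of them printed), the brightest or defining cell markers, and the 3 nearest in pattern; genes outside this rule are marked in the text as picked with their values in view. The members and lists were chosen with earlier results of these data known. The number of arrays limits the precision.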

Additional observations from a re-analysis of the deposited data

How the results depend on the processing

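The number of probe sets called by limma was 0 under the other pseudocounts, filters, scalings, the replicate block and no trend, and at an adjusted p of 0.1; it was 56 by a 2-fold difference in all 4 pairs and 504 at an unadjusted p under 0.05. With 1 array left out it ranged from 0 to 47, with a lone array assumed to vary like the others. With the replicate block the adjusted p of the 15 envelope probe sets ranged from 0.525 (Flg, log2 2.18) to 0.999842, and no call changed. The count of genes with both Ezh2cKO arrays higher was 3 of the 4 left in the upper 40% of probe sets by signal, where fewer genes could be counted, and ranged from 6 to 10 with 1 array left out, where fewer arrays must be ordered and 24.1% to 36.0% of all genes were so ordered. The median log2 difference of the 10 genes lay between 1.02 and 1.17 under the settings that keep all 10. It ranged from 0.57 to 1.45 with 1 array left out. It was 1.22 for the 9 left in the upper 60% and 1.24 for the 4 left in the upper 40%. These filters used the mean over all 4 arrays. Flg and 2310050C09Rik passed the upper 60% level (73.2), and Crct1 and Kprp the upper 40% level (206.8), with WT signals under it. The filtered count and medians thus favour genes that were high in Ezh2cKO.

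Ezh2 passed limma's threshold without WT replicate 1 (log2 -1.93, adjusted p 0.000444) and without WT replicate 2 (-1.82, 0.000205); leaving out 1 array gave -2.36 to -1.40. Of 166 values of single envelope probe sets under an alternative, 154 kept sign and call, 3 passed the threshold (Lor by 2 probe sets and Hrnr, all without WT replicate 2) and 9 changed sign, all with 1 array left out. Among the latter, the range with 1 array left out was -0.26 to 0.22 for Tchh, -0.60 to 0.39 for Rptn 1433210_at, -0.43 to 0.28 for 1433211_at, -0.27 to 0.38 for 1420431_at, and -0.15 to 0.66 for Cnfn. Dim signal limits Rptn, the second Ivl probe set and the WT level of Flg and 2310050C09Rik.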

Other observations

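Between Lor and Ivl, and just beyond Ivl, lie genes of the complex that belong to neither the Lce nor the Sprr family, named here after their values were seen. Lelp1, a gene for a late cornified envelope-like proline-rich protein, read 7.50 and 16.6 in WT and 24.0 and 34.7 in Ezh2cKO, higher in both knockout arrays at very low signal. Prr9 read 28.9 and 38.2 in WT and 14.5 and 35.5 in Ezh2cKO. Smcp, a sperm mitochondrial protein gene, read 12.1 and 26.4 in WT and 37.5 and 7.45 in Ezh2cKO, without an order by genotype.

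Lipid-handling genes of the granular list differed from each other; they were named after their values were seen. Alox12b, a lipoxygenase that takes part in binding lipid to the envelope, read 13.4 and 27.0 in WT and 68.9 and 68.7 in Ezh2cKO. As with Flg, its knockout arrays lay close together at an about equal level, and its WT signals were dim. Its partner lipoxygenase Aloxe3 had a log2 difference of -0.02, and the lipid transporter Abca12 one of -0.03.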
